A study of Mus musculus with 204 samples.

Results

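The Hox genes of the 4 mouse clusters were described across single cells picked from the distal colon. All 39 rows of the expression table whose names are Hoxa, Hoxb, Hoxc or Hoxd followed by a paralogue number were taken, of 49492 gene rows in all, without any choice by their values. They comprise 11 genes of the Hoxa cluster, 10 of Hoxb, 9 of Hoxc and 9 of Hoxd, and every member had at least 1 read in some cell. The cells, 66, 66 and 72 on 3 plates, came from VGLUT2-tdTomato reporter mice, in which cells that express the vesicular glutamate transporter Vglut2 (gene Slc17a6) are meant to fluoresce. Muscle layers and the myenteric plexus, a network of ganglia that lies between them, were dissociated and kept in culture overnight, after which red cells were picked by hand and their polyA RNA was sequenced without molecular identifiers. The sources used here name no age, number of animals or treatment, and the labels hold no control group, so all groups below were set from detected genes. All cells came from the distal colon, so positions along the gut could not be compared.

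Hox genes encode homeodomain transcription factors that lie in 4 clusters, and genes at the same place in different clusters form a paralogue group. In the embryo, genes with low paralogue numbers are active from the hindbrain backwards and genes with high numbers only towards the tail, in the order in which they lie along the cluster. Most enteric neurons descend from vagal neural crest that leaves the neural tube beside the hindbrain and migrates down the gut, whereas smooth muscle and fibroblasts of the gut wall arise from mesoderm in place. Genes of the last paralogue groups, such as Hoxa13 and Hoxd13, are known for their part in forming the hindgut.

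The labels call every cell a neuron, and the cells were checked against 13 genes found in neurons of most kinds. A transcript counted as detected at 10 CPM (reads per 1000000 reads of the cell) or more, and a cell carried a gene list when at least 50% of its genes were detected. By this rule 75.5% of cells were neuronal (54, 45 and 55 on plates 1 to 3) and 50 cells were not (12, 21 and 17), which are called other cells. Slc17a6 was detected in 57.8% of neuronal cells and in 0 of 50 other cells, where a count of 0 leaves room for 6%. A list of 8 smooth muscle genes was carried by 31 other cells and by 35 neuronal cells, and 95 neuronal cells carried no list of another cell type. Cells had between 453052 and 14310732 reads. On plate 3 the other cells were shallower, with a median of 2004519 reads against 5586716 in neuronal cells. Because no animal or culture is named, each plate was treated as 1 sample and no test was run. The labels number plate 1 apart, whereas the later plates share 1 continuous numbering. The 3 plates may therefore not be 3 independent samples. Shares are given with exact Clopper-Pearson 95% intervals, which cover counting error over cells only. They treat cells as independent and leave out differences between plates, animals and cultures. Reads without molecular identifiers are also not independent molecules.

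Neuronal cells had Hox genes of the low paralogue groups, led by group 5. Hoxb5, which is active in vagal neural crest of the embryo, reached 10 CPM in 94.2% of neuronal cells (interval 89.2 to 97.3). Hoxa5 did so in 93.5% of them (88.4 to 96.8), Hoxb4 in 85.1% (78.4 to 90.3), Hoxb2 in 84.4% (77.7 to 89.8) and Hoxb6 in 75.3% (67.7 to 81.9). These 5 had the highest neuronal shares of all members, so setting them beside other cells is a description. In other cells they were found in 26%, 24%, 30%, 32% and 20%. Lower traces were common there, as Hoxb5 had at least 1 read in 44 of 50 other cells, with a median of 1.62 CPM. No member reached 50% of the other cells, whereas 8 members did so in neuronal cells. The remaining 3 of those 8 were Hoxd3 (61.7%), Hoxa3 (60.4%) and Hoxa4 (55.8%).

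**Figure D1:**
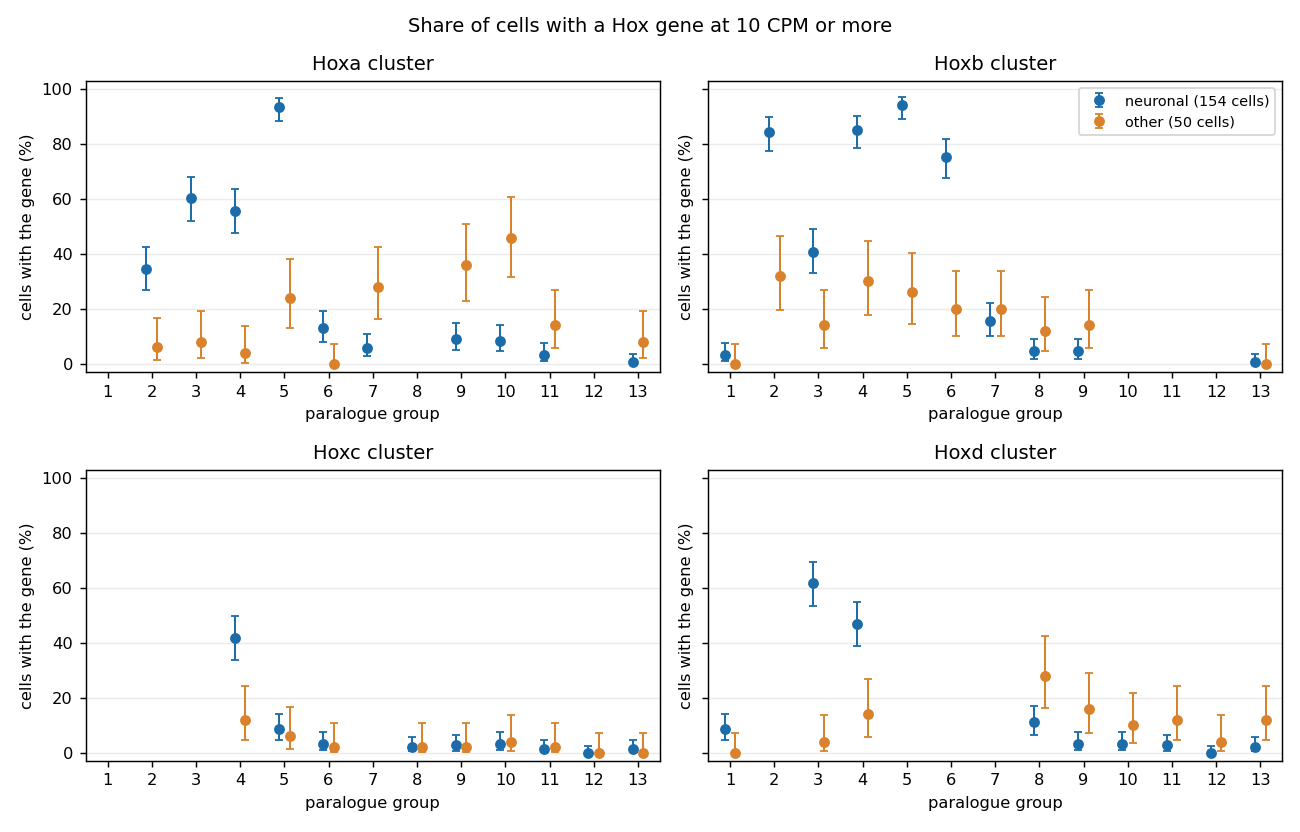
Percent of neuronal cells (blue) and other cells (orange) with Hox genes at 10 CPM or more, by paralogue group (horizontal axis) in each cluster; bars are exact 95% binomial intervals. Neuronal shares stand highest at group 5 in the Hoxa and Hoxb clusters and are low from group 7 on, where Hoxa10 reaches 46% of other cells.

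The upstream windows of some members are shown as examples, so that their sequences can be read beside their values. Windows of other frequent members, such as Hoxd4 and Hoxa9, are left out. RefSeq's promoter table (GRCm38.p6) held 22 of the 39 members, in 24 windows, and the 250 bases before the start are printed 5′ to 3′ on the gene's strand. The windows shown share no base with an exon of GENCODE M21. Capitals mark TAAT, the core that homeodomains bind (on either strand), and TGATNNAT, a site bound by Hox proteins with the cofactor Pbx (on either strand). Matches of the motifs may overlap. Hoxa2, Hoxb4 and Hoxa5 were higher in neuronal cells, and Hoxa10 and Hoxd8 were found in a larger share of the other cells.
Hoxa2 (chr6:52164832-52165081, minus strand): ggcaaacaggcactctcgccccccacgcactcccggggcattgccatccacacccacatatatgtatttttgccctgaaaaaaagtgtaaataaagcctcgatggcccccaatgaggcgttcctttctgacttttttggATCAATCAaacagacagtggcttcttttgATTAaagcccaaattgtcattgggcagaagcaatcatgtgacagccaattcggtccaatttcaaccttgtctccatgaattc
Hoxb4 (chr11:96318017-96318266, plus strand): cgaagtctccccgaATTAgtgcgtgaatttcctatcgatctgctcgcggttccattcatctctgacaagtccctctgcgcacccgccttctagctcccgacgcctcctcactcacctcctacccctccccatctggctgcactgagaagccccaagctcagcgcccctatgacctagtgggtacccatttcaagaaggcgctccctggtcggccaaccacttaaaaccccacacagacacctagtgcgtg
Hoxa5 (chr6:52204588-52204837, minus strand): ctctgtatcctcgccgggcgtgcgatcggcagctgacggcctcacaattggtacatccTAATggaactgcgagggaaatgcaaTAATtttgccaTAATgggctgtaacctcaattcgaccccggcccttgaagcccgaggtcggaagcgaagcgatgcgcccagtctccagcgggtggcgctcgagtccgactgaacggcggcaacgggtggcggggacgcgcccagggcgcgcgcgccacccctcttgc
Hoxa10 (chr6:52240855-52241104, minus strand): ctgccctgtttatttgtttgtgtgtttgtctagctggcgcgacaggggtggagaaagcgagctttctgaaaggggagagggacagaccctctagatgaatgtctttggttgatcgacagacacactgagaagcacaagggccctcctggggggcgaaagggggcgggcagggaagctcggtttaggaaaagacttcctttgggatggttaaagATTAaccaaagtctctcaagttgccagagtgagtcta
Hoxd8 (chr2:74704365-74704614, plus strand): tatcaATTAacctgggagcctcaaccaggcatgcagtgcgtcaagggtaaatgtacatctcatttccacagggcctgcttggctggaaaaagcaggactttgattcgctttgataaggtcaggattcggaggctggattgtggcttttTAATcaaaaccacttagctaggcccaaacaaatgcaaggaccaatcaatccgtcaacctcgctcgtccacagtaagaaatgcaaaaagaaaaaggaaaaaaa
TAAT was found in 18 of the 24 Hox windows and in 54.9% of 32851 windows of the same length over all genes. TGATNNAT was found in 4 of 24, against 7.68% of all windows. By paralogue number, TAAT was in 8 of 10 windows of groups 1 to 6 and in 10 of 14 windows of groups 7 to 13. A match is a run of letters in this window and not evidence of binding.

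Within each cluster the neuronal shares depended on the paralogue number, though not evenly. In the Hoxa cluster they were 34.4% for Hoxa2, 60.4% for Hoxa3, 55.8% for Hoxa4 and 93.5% for Hoxa5, and then 13% for Hoxa6 and 5.84% for Hoxa7. In the Hoxb cluster Hoxb1 was found in 3.25% and Hoxb3 in 40.9%, between the high shares of Hoxb2, Hoxb4, Hoxb5 and Hoxb6 given above, and Hoxb7 was at 15.6%. Hoxc4 (41.6%) was the only Hoxc gene in more than 10% of neuronal cells. In the Hoxd cluster Hoxd3 (61.7%) and Hoxd4 (46.8%) led, with Hoxd1 at 8.44% and Hoxd8 at 11%. The step from high to low shares thus lay after group 5 in Hoxa and after group 6 in Hoxb. In Hoxc it lay after Hoxc4, the first gene of that cluster. In Hoxd it lay between Hoxd4 and Hoxd8, as that cluster has no gene between them.

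On the RPKM scale (CPM per kilobase of exon), which allows genes to be compared, the mean level in neuronal cells was highest for Hoxb5 (132.8 RPKM), followed by Hoxa5 (87.3), Hoxb6 (55.0), Hoxb2 (29.0) and Hoxb4 (25.5). Hoxc4 and Hoxa4 came next at 15.6 and 14.3 RPKM. Hoxb5 was the highest Hox gene in 98 neuronal cells (63.6%), Hoxa5 in 21 and Hoxb6 in 19. In other cells Hoxa10 was the most frequent highest gene, in 10 of 50 cells, with Hoxa5, Hoxb5 and Hoxb6 in 5 cells each.

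Paralogue group 5 gave 53% of the mean summed Hox RPKM of neuronal cells, group 4 gave 14.6%, group 6 gave 14.2% and group 2 gave 8.61%. Groups 9 to 13 together gave 1.46%. In other cells groups 9 to 13 gave 42.8% and group 10 alone 19.2%. By cluster, Hoxb gave 61.1% of the neuronal sum and Hoxa 29.9%, while in other cells Hoxa gave 41.4%, Hoxb 29.6% and Hoxd 24.3%. Hoxc gave 4.43% and 4.7%. Medians over cells gave smaller shares for groups 9 to 13, at 0.0185% in neuronal and 28.8% in other cells.

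Hoxb5 (chr11:96303336-96306121, plus strand, ENSMUSG00000038700) had the largest log2 ratio of class means among the 12 members compared. In neuronal cells its lowest, median and highest levels were 0.351, 339 and 1449 CPM on plate 1, 0, 343 and 1013 on plate 2, and 0.406, 302 and 1046 on plate 3. In other cells the medians were 3.22, 2.01 and 0.53 CPM and the highest values 41.2, 51.5 and 137 CPM. The lowest neuronal cells lay within the range of the other cells on each plate, but every neuronal median stood above the highest other cell. Ratios of the class means, with 1 CPM added to each, were 5.21, 5.32 and 4.87 on the log2 scale.

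Hoxa5 (chr6:52201754-52204587, minus strand), the paralogue of Hoxb5 in the Hoxa cluster, had neuronal medians of 127.1 CPM on plate 1 and 108.2 CPM on plate 3, with plate 2 above both. Its highest neuronal cells reached 523, 1431 and 523 CPM. Other cells had medians of 7.59, 0.944 and 0.203 CPM with highest values of 27.2, 43 and 120 CPM. The classes overlapped at the low end of the neuronal cells, and the log2 ratios of means were 3.78, 4.78 and 3.13. For Hoxb4 (chr11:96318267-96321638, plus strand) the neuronal medians were 66, 43.8 and 50.8 CPM, against 13.56, 0.344 and 0 CPM. Its ratios were 2.09, 2.66 and 3.86, and 58.3% of other cells were positive on plate 1 against 11.8% on plate 3. Some neuronal cells had no Hoxb4 read on every plate.

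A gene was compared where its mean over the cells of both classes was at least 5 CPM on every plate, and it was called higher or lower where the log2 ratio of means was at least 1 in the same direction on all 3 plates. Of 39 members 12 could be compared, of which 10 were called higher in neuronal cells, where 17.3% of 11179 genes were called higher. Hoxa10 alone was called lower, where 5.43% of all genes were. Since neuronal cells outnumber the others, this mean favours genes that are high in them, so the 12 do not stand for the 39. Their median log2 ratio was 2.91, beside 0.33 over all genes compared.

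The 10 genes called higher were Hoxb5, Hoxa5, Hoxd3, Hoxb6, Hoxc4, Hoxa3, Hoxb2, Hoxb4, Hoxa4 and Hoxa2. Hoxd3 had log2 ratios of 3.96, 5.14 and 3.46, from neuronal means of 15.9, 53.9 and 44.7 CPM against 0.0815, 0.557 and 3.15 CPM. Hoxb6 had ratios of 3.66, 3.83 and 2.46, and Hoxc4 of 3.23, 4.03 and 2.47. For Hoxb2, which patterns the hindbrain, they were 2.96, 3.21 and 2.40, and for Hoxa3, known for its part in pharyngeal organs, 2.35, 3.85 and 2.63. Hoxa4 had 2.62, 4.16 and 1.77. The smallest ratio among the 10 was that of Hoxa2 on plate 3, at 1.36, with 2.97 and 2.09 on the other plates. Hoxd4 was not called, as its neuronal mean of 7.22 CPM on plate 1 matched 6.92 CPM in other cells (log2 ratio 0.05), while plates 2 and 3 gave 2.21 and 2.36.

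**Figure D2:**
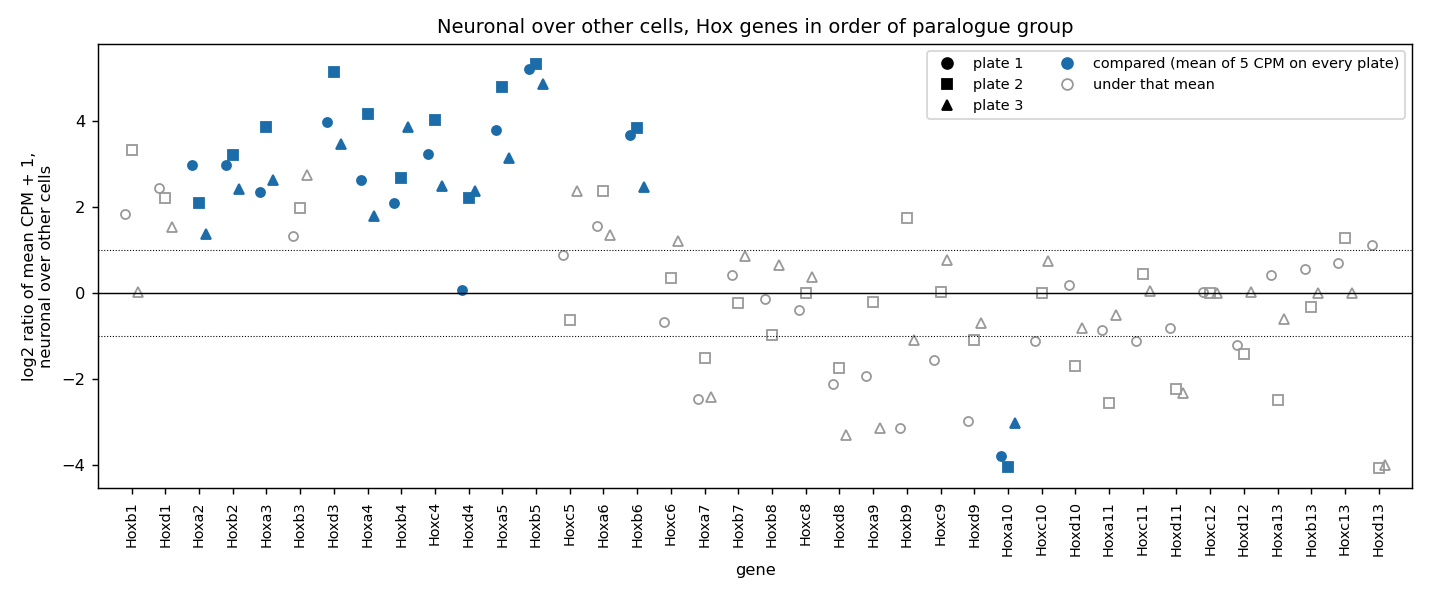
Log2 ratio of mean CPM + 1 in neuronal over other cells for Hox genes on plates 1 to 3 (circle, square, triangle), in order of paralogue group; filled blue symbols mark the 12 genes with a mean of at least 5 CPM on every plate, and dotted lines mark ratios of 1 and -1. Hoxb5 lies near 5 on all plates and Hoxa10 between -4.06 and -3.04.

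Shares of cells, which need no mean of 5 CPM, were set side by side for all 39 members. They include the 12 compared above, and the same count over all genes was not made. The split between groups 1 to 6 and 7 to 13 was drawn after the values had been seen and is a description. All 18 members of groups 1 to 6 were detected in a larger share of neuronal than of other cells. Of the 21 members of groups 7 to 13, 17 had a larger share in other cells and 1 had equal shares. Hoxd1, in 8.44% of neuronal cells, had 0 reads in other cells, and Hoxa6 was found in 13% and in 0 of 50. Such a 0 of 50, seen for 7 members, leaves room for 6%.

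Hoxa10 (chr6:52231197-52240854, minus strand) was the leading member in other cells. It reached 10 CPM in 23 of 50 (46%, interval 31.8 to 60.7) and in 13 neuronal cells (8.44%, 4.57 to 14). Its median and highest levels in other cells were 51.5 and 93.4 CPM on plate 1, 0.112 and 243 CPM on plate 2, and 0 and 377 CPM on plate 3, and its lowest was 0 on each. Neuronal medians were 0 CPM on all plates, with highest cells at 71, 25.8 and 92.6 CPM. Other cells were thus a mixture of positive and negative cells, and positive neuronal cells lay within their range. The log2 ratios of means were -3.80, -4.06 and -3.04.

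Further genes of groups 7 to 13 were each found in a minority of other cells. Hoxa9 was detected in 36% of them and in 9.09% of neuronal cells, Hoxa7 in 28% against 5.84%, and Hoxd8 in 28% against 11%. Hoxd9 was found in 16%, Hoxb9 and Hoxa11 in 14% each, and Hoxd11 and Hoxd13 in 12% each, against 1.95% to 4.55% in neuronal cells. Hoxd13, a gene of the hindgut and limbs, was found in 0 of 12, 19% and 11.8% of other cells on plates 1 to 3. Its highest level in other cells was 240 CPM, while 3 neuronal cells reached at most 21.5 CPM. Hoxa13 followed with 8% of other cells, all on plate 2, and 0.649% of neuronal cells. Hoxb7 had nearer shares, at 20% and 15.6%. Hoxc12 passed 10 CPM in no cell and had reads in 1 cell.

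Without the filter on the mean, Hoxa7 and Hoxd8 were also called lower in neuronal cells, which makes 3 of 39, and 14 members were called higher. Of all 49492 gene rows, 1.71% were called lower and 5.8% higher in this way. Hoxa7 then had log2 ratios of -2.47, -1.53 and -2.42, and Hoxd8 of -2.13, -1.76 and -3.30. When neuronal cells without any other list were set against other cells with the smooth muscle list, 12 members were called higher and 2 lower, beside 20.6% and 5.75% of 10843 genes. The second lower gene was Hoxa9, with ratios of -1.20, -4.38 and -3.49.

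Individual cells carried several of these genes. The median neuronal cell had 9 Hox genes detected (quartiles 7 and 11, highest 16), and the median other cell had 4 (quartiles 2 and 7, highest 14). Hoxa5 and Hoxb5 were detected together in 140 neuronal cells (90.9%) and in 6 of 50 other cells. Hoxb2, Hoxb4, Hoxa5 and Hoxb5 were all found in 74% of neuronal cells (66.4 to 80.8) and in 3 other cells. A lone neuronal cell, on plate 3 and with the smooth muscle list, had no Hox gene at 10 CPM, as had 6 other cells. The number per neuronal cell varied weakly with the number of reads (Spearman's rho 0.27 over the neuronal cells) and with the number of pan-neuronal genes (0.35).

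The highest paralogue group detected had a median of 6 in neuronal and 10 in other cells. It was group 5 in 26 neuronal cells and group 6 in 72 (16.9% and 46.8%). In other cells it was group 10 in 11 cells, group 11 in 8 and group 13 in 8 of 50. A gene of groups 9 to 13 was detected in 19.5% of neuronal cells (13.55 to 26.63) and in 62% of other cells (47.2 to 75.4). By plate, the neuronal share was 27.8%, 20% and 10.9%, and the other share 83.3%, 57.1% and 52.9%. On each plate the other cells had the larger share.

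**Figure D3:**
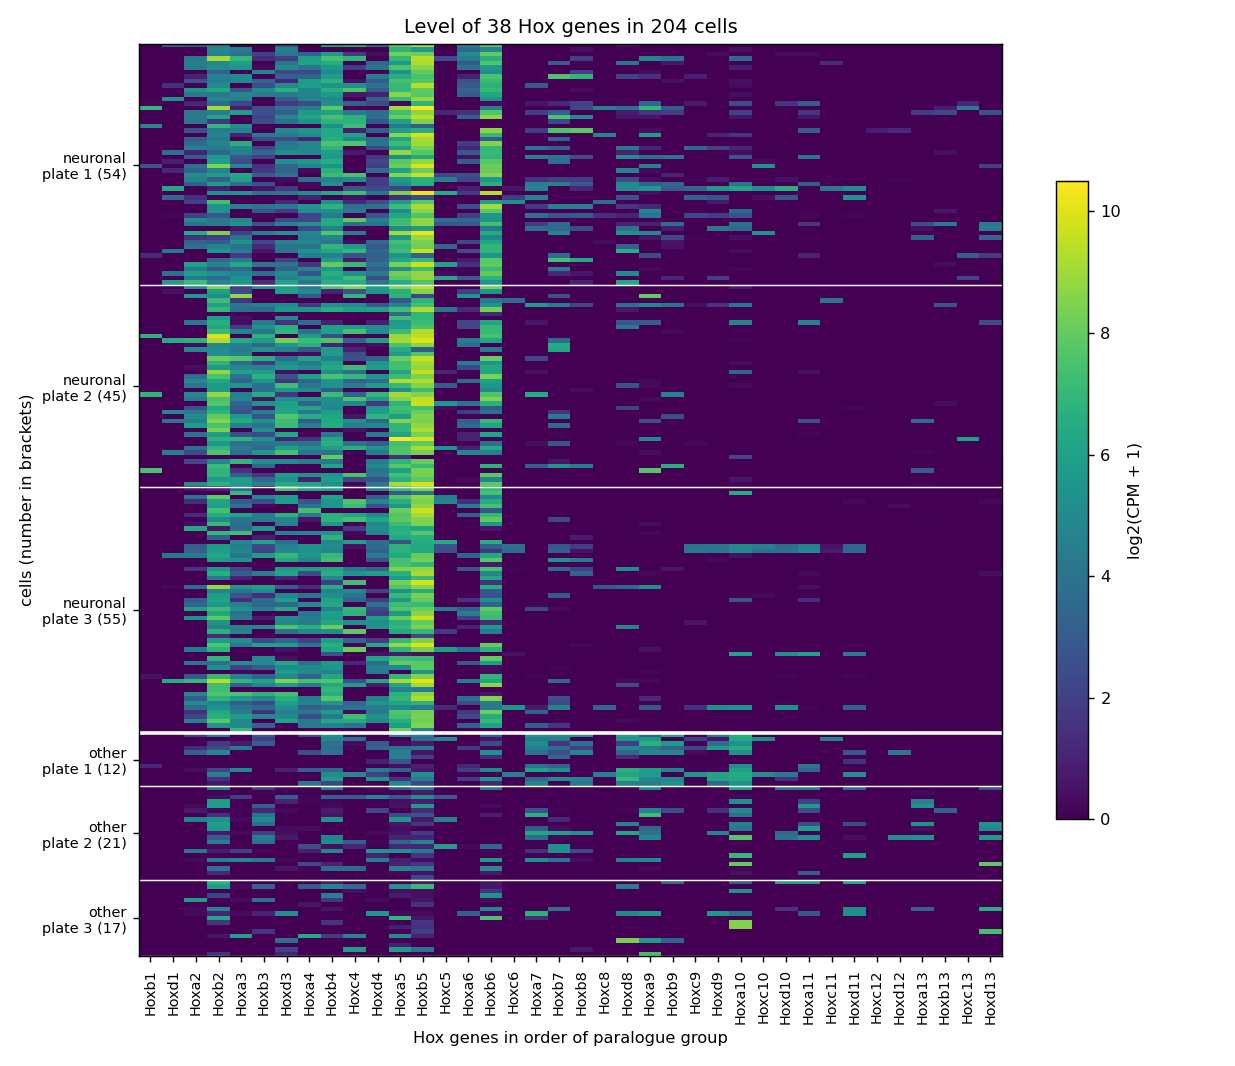
Level of Hox genes (columns, in order of paralogue group) in all cells (rows, neuronal cells above the thick white line, then other cells, by plate, with the number of cells in brackets), coloured by log2(CPM + 1). Bands of colour at Hoxb2, Hoxb4, Hoxa5, Hoxb5 and Hoxb6 run through the neuronal cells, while signal from Hoxa7 to Hoxd13 lies in scattered neuronal cells and in many other cells.

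Levels were also summed over groups 1 to 6 and 7 to 13 in each cell. As this split was drawn after the values had been seen, the sums are a description and no test of a separation. The RPKM of groups 1 to 6 exceeded that of groups 7 to 13 in 151 neuronal cells (98.1%) and in 19 of 50 other cells. In the median neuronal cell 99.7% of Hox RPKM came from groups 1 to 6, and in the median other cell 29.6%. The sums of groups 1 to 6 had medians of 350 RPKM in neuronal and 25.0 RPKM in other cells. The sums of groups 7 to 13 had medians of 1.30 and 39.1 RPKM. Other cells spanned the whole range, from 0.992% to 100% of Hox RPKM from groups 1 to 6.

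**Figure D4:**
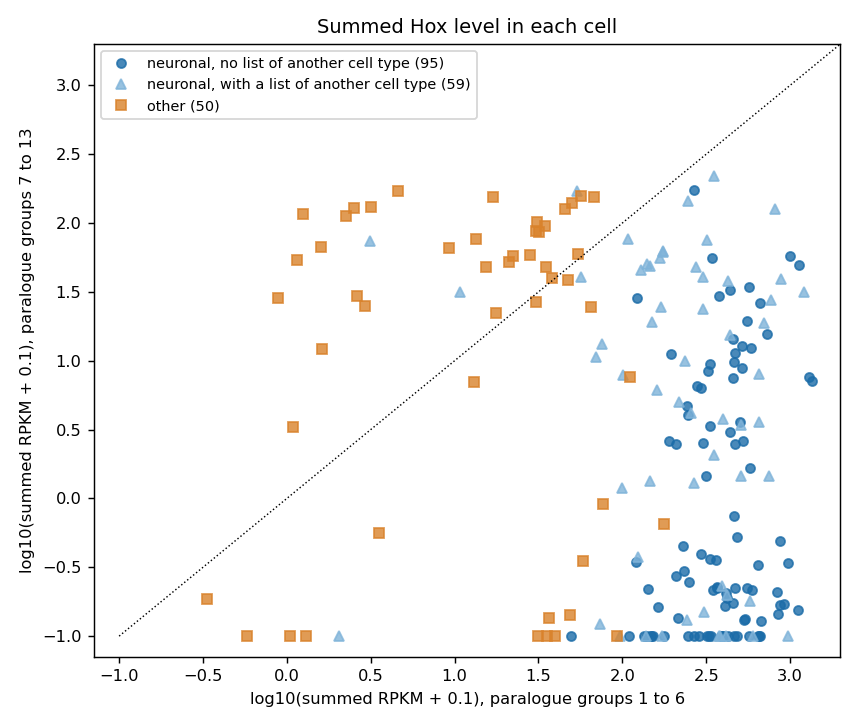
Summed RPKM of Hox groups 1 to 6 (horizontal) and 7 to 13 (vertical) in each cell, both as log10(RPKM + 0.1); dark circles are neuronal cells without a list of another cell type (95), light triangles are neuronal cells with such a list (59), squares are other cells (50), and the dotted line marks equal sums. All 95 dark circles lie below the line, as 151 neuronal cells in all do, and 31 of 50 other cells lie above it. The split between the groups was drawn after the values had been seen.

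Neuronal cells with genes of groups 9 to 13 often carried a list of another cell type as well. Of the 30 such cells, 24 carried one, against 35 of the neuronal cells without these genes. Among the 30, 14 carried the smooth muscle list, 12 the epithelial and 10 the fibroblast list, and among the rest 21, 4 and 4 did. The summed level of the 8 smooth muscle genes had a median of 197 CPM in the 30 cells and 33.6 CPM in the rest. Both sets had similar numbers of neuronal genes, with medians of 12.5 and 13 of 13. The part of other cells' RNA in these values was not tested.

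Among the 95 neuronal cells without a list of another type, 6 had a gene of groups 9 to 13 (6.32%, 2.35 to 13.2). In 40% of the 35 neuronal cells with the smooth muscle list such a gene was found. Of the 16 members of these groups, 11 were detected in none of the 95 cells and 2 of the 16 had no read there. Hoxa9 was found in 5.26% and Hoxa10 in 3.16% of the 95. Hoxb7 and Hoxd8, in groups 7 and 8, were found in 12.6% and 11.6%. The low groups were frequent there, with Hoxb5 in 98.9%, Hoxa5 in 97.9%, Hoxb2 in 89.5% and Hoxb4 in 88.4% of the 95.

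Other cells were looked at in the same way. Of 31 with the smooth muscle list, 71% had a gene of groups 9 to 13 (52 to 85.8), and of 19 without it 47.4% (24.5 to 71.1), intervals that overlap. Hoxa10 was found in 54.8% and 31.6%. Hoxd13 was found in 19.4% of the 31 and in 0 of the 19. The 13 other cells with Hoxb5 had a median of 4 pan-neuronal genes. The 37 without Hoxb5 had a median of 2 such genes. Medians with and without Hoxa5, and with and without Hoxb4, were also 4 and 2. Hoxb2 went the other way, with a median of 2 in the 16 cells with it and 2.5 in the 34 without. The part of neuronal RNA in the Hox levels of other cells was not tested. Among 14 other cells with a list of 4 endothelial genes, Hoxa9 was found in 78.6% (49.2 to 95.3), and Hoxd8 and Hoxa10 each in 71.4% (41.9 to 91.6). Lists overlap between cells, so these shares share cells with those above.

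Neuronal cells with the smooth muscle list were also set against those without it. On plate 2 the former were shallower, with a median of 1591157 against 4955275 reads. None of the 13 members compared was called higher, where 0.885% of 10964 genes were called higher, and none was called lower, where 0.967% were. The median log2 ratio of the members was -0.78, beside -0.29 over all genes. Hoxd3 had ratios of -1.51, -0.80 and -1.25, and Hoxa4 of -0.98, -1.74 and -0.93, each a little short of the call on at least 1 plate. With means of log2 values, Hoxb5 (-1.28, -1.52 and -1.41) and Hoxd3 (-1.88, -2.26 and -1.60) were called lower, as were 1.02% of all genes compared, and none higher, where 0.857% were.

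The acetylcholine-making enzyme Chat and the nitric oxide synthase Nos1 mark the main kinds of enteric motor neuron, excitatory and inhibitory. Chat without Nos1 was detected in 57 cells, Nos1 without Chat in 31, both in 50 and neither in 66. The 2 exclusive classes were compared on plates 2 and 3 (18 against 15 and 16 against 13 cells), as plate 1 held 3 Nos1-only cells. Each class held 1 cell that was not neuronal. Median reads were 4211462 and 4986781 in Chat-only cells, and 5233561 and 6885200 in Nos1-only cells. Smooth muscle genes differed too, as Acta2 had means of 490 against 308 CPM on plate 2 and 290 against 8.43 CPM on plate 3, and their part in the values below was not tested.

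Of 13 members compared, Hoxc4 was called higher in Chat-only cells, where 4.79% of 12009 genes were called higher. None was called lower, where 2.26% of genes were. The members' median log2 ratio was 0.28, beside 0.09 over all genes. Hoxb2 had ratios of 0.11 and -0.03, Hoxa5 of -0.11 and -0.33, and Hoxb5 of 0.24 and 0.58, on plates 2 and 3. Hoxc4 had means of 70.1 against 3.6 CPM on plate 2 and 46.9 against 22.8 CPM on plate 3, with log2 ratios of 3.95 and 1.01. The call rests on few cells: without the highest cell of each plate the ratios were 3.59 and 0.41, and it was lost. Over all neuronal cells of the classes, Hoxc4 was detected in 46.4% of Chat-only, 52% of double-positive and 30% of Nos1-only cells. These shares pool the plates, which the classes fill unevenly. Plate 1 held 23 of the 56 Chat-only, 22 of the 50 double-positive and 3 of the 30 Nos1-only cells. Hoxc4 was found in 46.3%, 37.8% and 40% of neuronal cells on plates 1 to 3.

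Hoxb6 had log2 ratios of 0.72 and 1.92, so that plate 2 missed the call, and means of 105.7 against 63.7 CPM on plate 2, and a higher mean against 29.5 CPM on plate 3. In the cells without a list of another type the ratios were 1.54 and 1.92, Hoxb6 was called higher in Chat-only cells, as were 5.8% of 11651 genes, and Hoxc4 was not. No member was called lower there, where 2.7% of genes were. Hoxb6 was found in 80.4% of Chat-only, 92% of double-positive and 63.3% of Nos1-only neuronal cells. These shares pool the plates too. On plates 1 to 3, Hoxb6 was in 88.9%, 73.3% and 63.6% of neuronal cells, and plate 1 held few Nos1-only cells. The part of the plates in these shares was not tested. Hoxa6, the paralogue of Hoxb6, was found in 21.4%, 12% and 3.33%, but its means were under 5 CPM. Its ratios of 1.88 and 1.505 came from 6.74 against 1.11 CPM and 4.72 against 1.02 CPM. With no filter on the mean, Hoxa6, Hoxc4 and Hoxa11 were called higher in Chat-only cells and no member lower, beside 2.23% and 1.35% of all gene rows. Hoxb3 had the opposite order of shares, at 33.9% and 56.7%, with log2 ratios of -0.13 and 0.57 on plates 2 and 3. Plate 1, where Hoxb3 was low, held 23 of the 56 Chat-only and 3 of the 30 Nos1-only neuronal cells.

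**Figure D5:**
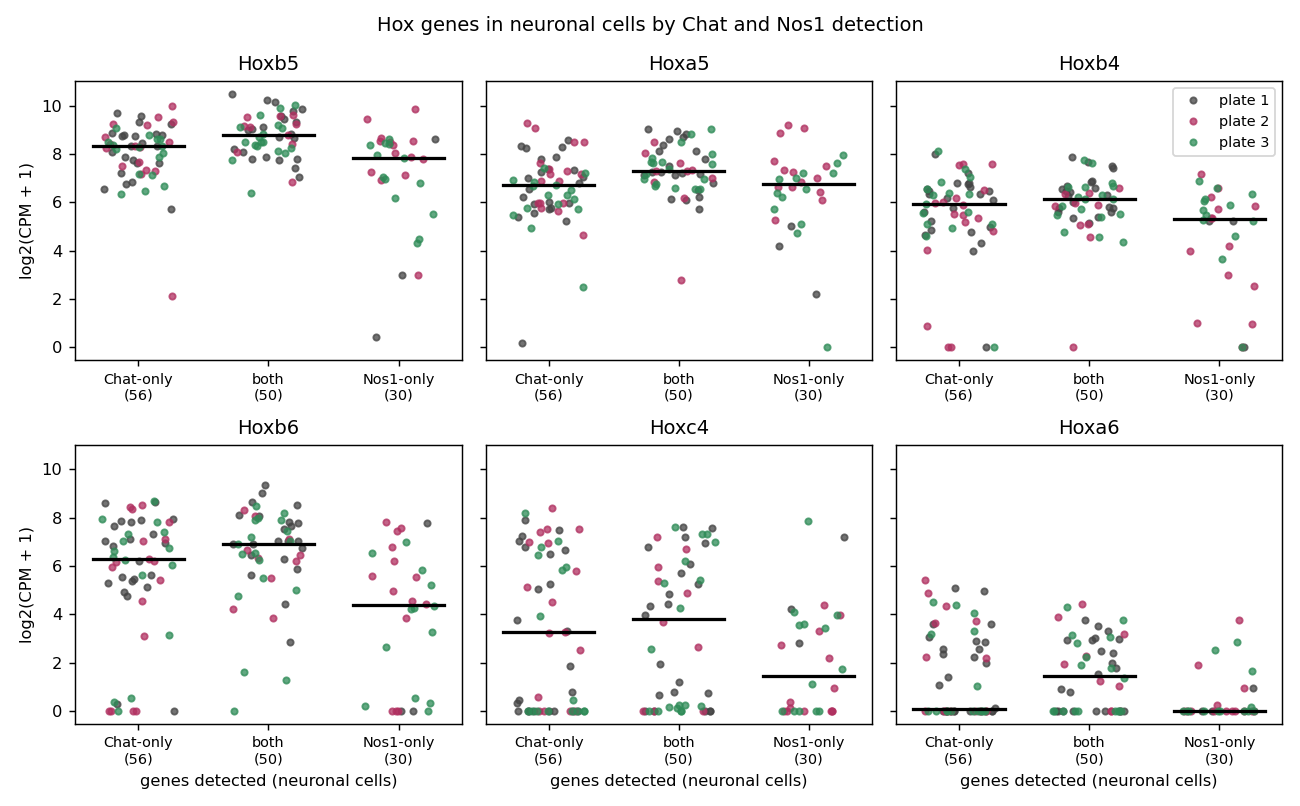
Level (log2(CPM + 1)) of 6 Hox genes in neuronal cells with Chat but not Nos1 (56), both (50) and Nos1 but not Chat (30); points are cells coloured by plate, and black lines are class medians. Hoxb5, Hoxa5 and Hoxb4 overlap between the classes, while for Hoxb6, Hoxc4 and Hoxa6 a larger share of the Nos1-only class lies under 10 CPM. The classes are spread unevenly over the plates, with 23, 22 and 3 cells on plate 1.

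Double-positive cells had a median of 10 members, against 9 in Chat-only and 9 in Nos1-only neuronal cells. Their ranges overlapped, at 5 to 16, 3 to 16 and 4 to 16, and the classes are spread unevenly over the plates. The 18 neuronal cells with neither gene had a median of 4 Hox genes. These 18 cells were shallow, with a median of 1251208.5 reads, and 13 of them carried a list of another cell type. Hoxb5 and Hoxa5 were each found in 72.2% of them, and Hoxd3 and Hoxd4 in 0 of 18. The part of depth in these shares was not tested.

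Among shares of neuronal cells, the range over plates was widest for Hoxb3. It was detected in 18.5%, 68.9% and 40% of neuronal cells on plates 1 to 3, with means of 5.04, 26.0 and 15.8 CPM. The antisense transcript Hoxb3os covers 52.9% of the exon bases of Hoxb3, and its neuronal means were 5.45, 156 and 92.9 CPM, lowest on the same plate. As the strand setting of the counting is not given in the sources used here, reads of Hoxb3 and Hoxb3os cannot be told apart where they overlap. Hoxb5os, antisense to Hoxb5, also had a low mean on plate 1, at 5.67 CPM against 122.5 and 95.4 CPM. It covers 3.59% of Hoxb5, whose means of 404, 400 and 311 CPM did not follow it. Plate 1 is also the plate that the labels number apart from the others. The part of this split in the low values was not tested.

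Among the frequent members, Hoxb6 was found in 88.9%, 73.3% and 63.6% of neuronal cells on plates 1 to 3, and Hoxb4 stood at 94.4%, 75.6% and 83.6%. Hoxd4 was found in 35.2%, 57.8% and 49.1%. Hoxa5 and Hoxb5 stood at 94.4%, 95.6% and 90.9%, and at 92.6%, 93.3% and 96.4%. In other cells Hoxa7 was found in 75%, 19% and 5.88%, and Hoxa10 in 83.3%, 42.9% and 23.5%. Plates hold different cells and mice cannot be assigned to them, so plate, animal and picking cannot be told apart. Plate 1 is numbered apart in the labels, and the later plates share a numbering, so their values may not be independent of each other.

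In all, 16 members share exon bases with another annotated gene, and values of those genes are less certain. Hoxd3 and Hoxd4 share 388 exon bases with each other and larger stretches with Gm28230, a transcript annotated across both. Hoxb2 shares 27.3% of its exon bases with Hoxb3os, and reads of the 2 cannot be told apart there either. Neuronal means of Hoxb2 were 60.5, 162.4 and 90.9 CPM on plates 1 to 3, in the same order as those of Hoxb3os. Hoxa5, Hoxb4, Hoxb6 and Hoxa10 are among the 23 that share none.

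Over 13 members detected in at least 20% of them, 78 pairs gave Spearman correlations of log levels from 0.01 to 0.64, with 30 pairs above 0.3. The highest was between Hoxa5 and Hoxb5 (0.64), paralogues on different chromosomes, followed by Hoxb2 with Hoxb5 (0.54) and Hoxd3 with Hoxd4 (0.52), which share exons. Pairs of the same cluster had a median of 0.31 and pairs of different clusters 0.24. The pairs share cells, plates and depth, so these values are a description.

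Hox proteins bind DNA with TALE homeodomain partners of the Pbx, Meis and Pknox families. Of 9 such genes 8 could be compared, of which 4 were called higher and 1 lower in neuronal cells, beside 17.3% and 5.43% of all genes compared. Meis3 was detected in 87.7% of neuronal and 46% of other cells, Meis1 in 76.6% and 34%, Pbx3 in 70.1% and 36%, and Pbx4 in 28.6% and 2%. Meis2 went the other way, in 9.09% and 52%, with log2 ratios of -4.24, -2.59 and -2.38. Pknox1 was found in 67.5% and 44% and was not called. In Chat-only against Nos1-only cells 3 of 8 were called higher, beside 4.79% of all genes, among them Pbx2 (1.01 and 1.03) and Pbx3 (3.66 and 1.22).

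Of a list of 13 regulators 9 could be compared, and 1 was called higher and 1 lower in neuronal cells. Of all genes compared, 17.3% were called higher and 5.43% lower. The list held the caudal factors Cdx1, Cdx2 and Cdx4, retinoic acid receptors, Gdf11, and Trithorax and Polycomb genes. Rarb, which retinoic acid induces, was called higher in neuronal cells, with log2 ratios of 3.92, 4.37 and 3.07 and shares of 44.8% against 10%. It was called lower in Chat-only than in Nos1-only cells (-2.66 and -2.025), and Rara was called higher there (1.14 and 1.23). These were 1 lower and 1 higher of 8 regulators compared there, beside 2.26% and 4.79% of all genes. Ezh2, the Polycomb methyltransferase, was called lower in neuronal cells (-1.49, -1.45 and -1.48). Kmt2a, the Trithorax methyltransferase, was found in 92.9% of neuronal and 58% of other cells. Eed was found in 72.1% and 74%, Rarg in 68.2% and 48%, and Bmi1 in 55.2% and 50%. None of these was called in neuronal against other cells. Cdx1 and Cdx2 were each detected in 2 neuronal cells and Cdx4 in none, which leaves room for 1.95%.

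Of 9 noncoding rows of the clusters, 3 could be compared and 2 were called higher in neuronal cells, beside 17.3% of all genes compared. Hotairm1 was found in 67.5% of neuronal and 14% of other cells, with log2 ratios of 1.49, 3.11 and 2.78. Hoxaas2, antisense to Hoxa3, was found in 65.6% and 4%, with ratios of 2.97, 5.02 and 1.85. Hoxa11os, antisense to Hoxa11, was found in 1.95% and 16%. Hottip had no read in any cell.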

How the data were processed

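Single hand-picked cells were profiled with polyA RNA-seq, 1 cell per sample. The authors deposited 1 table of log2 values, log2(RPKM + 1), on mm10 per the submitters' processing notes; the base and added 1 were read from the values, with the aligner and counter not given in the sources used here. Whole reads were recovered for 100% of values above 0 (tolerance 0.0001), with GENCODE M21 exon lengths for 31345 genes (all Hox members) and the smallest length giving whole reads for 6290, and CPM was computed from them. The comparisons had been designed for counts, and the file turned out to hold logged RPKM. Because labels name no animal or culture, no test was run; a ratio needed 5 cells of each class per plate. Scripts were tested on simulated data. No doublet caller was run, since cells were picked by hand. Named genes were Hox members in at least 10% of either class, those compared by ratio (up to 12 per direction), the 4 most frequent members of the cofactor and regulator lists and any called; others were named after their values were seen. Values of some genes are counted but not reported here. The members and lists were chosen with earlier results of these data known. Alternatives included other detection levels, pseudocounts, filters, thinning to 400000 reads and leaving out plates. Software was Python 3.11.15 with numpy 2.4.6, pandas 2.3.3, scipy 1.17.1 and matplotlib 3.10.9.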

Additional observations from a re-analysis of the deposited data

Results flagged for a closer look

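Hoxa2 was flagged because its difference between Chat-only and Nos1-only cells had opposite directions on the plates. The log2 ratio of mean CPM was 1.18 on plate 2, with 20.6 against 8.51 CPM, and -1.08 on plate 3, with 5.81 against 13.4 CPM. The difference between the plates was not tested.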

How the results depend on the processing

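Members called higher in neuronal cells numbered 9 to 14 over all alternatives, beside 10, and no called value changed sign. Members called lower rose from 1 to 3 with no filter on the mean, and to 2 with neuronal cells without another list against other cells with the smooth muscle list. For Chat-only against Nos1-only cells, 1 member called higher became 0 with a pseudocount of 10 CPM, with classes set by a ratio of at least 4, with means of log2 values and when each plate's highest cell was left out, and 3 with no filter. With against without the smooth muscle list, 0 members called lower became 2 with means of log2 values. The median of 9 Hox genes per neuronal cell became 11 at 5 CPM and at 1 RPKM, 8 at 20 CPM, and 10 without plate 3 or with only cells that carried no other list. The share of neuronal cells with groups 9 to 13 fell from 19.5% to 6.32% in the latter. The share with groups 1 to 6 moved from 98.7% to 100% at 1 RPKM, without plate 3 and in cells with no other list, and in other cells from 68% to 82% at 1 RPKM. Groups 9 to 13 gave 1.46% of summed RPKM by means and 0.0185% by medians in neuronal cells, and 42.8% and 28.8% in other cells. The cause of these shifts was not tested. Shares of groups 1 to 6 and 9 to 13 under further settings, and ratios from thinned reads, were added after seeing the data. A second pan-neuronal list was not run. No paired analysis was possible because the values come from no test and cell numbers shared between plates pair no cells; each ratio was taken within a plate. The number of cells limits shares near 0, as 0 of 50 leaves room for 6%, and on plate 3 the other cells had fewer reads.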
